A study of Homo sapiens with 4 samples.

Results

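The genes described here act in the repair of DNA double-strand breaks and of crosslinks between DNA strands. They were chosen by name from a list of 43 symbols, and 42 of the 43 were found in the table of 13957 genes from the RNA sequencing of MDA-MB-231 Fluc cells. MDA-MB-231 is a human triple-negative breast cancer line, and Fluc denotes the firefly luciferase gene that these cells carry. The cells received cordycepin (3′-deoxyadenosine, an adenosine analogue that lacks the 3′ hydroxyl group) at 50 μM in 2 samples and only the vehicle, DMSO, in the other 2, each for 2 h. The values used here are one mean abundance per gene over all 4 libraries, so they describe how abundant each repair transcript was across the treated and vehicle cells together. The effect of cordycepin on these genes was not analysed here, and the mean column carries no spread between replicates, no depth per library and therefore no test. A difference between genes below is a description of that column.

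Double-strand breaks are sensed by kinases of the ATM and ATR family, which signal to checkpoint and adaptor proteins around the break. The ends are then either joined directly, by the DNA-dependent protein kinase and ligase IV machinery (end joining), or cut back to single strands (resection) and copied from the sister chromatid (homologous recombination). Crosslinks between strands that block replication are recognised by the Fanconi anaemia proteins, which add ubiquitin to FANCD2 and FANCI and pass the lesion to recombination. Inherited loss of BRCA1, BRCA2 or PALB2 predisposes to breast cancer, and tumour cells without homologous recombination are sensitive to agents that break or crosslink DNA.

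Levels of single genes were compared after scaling to length. The level per kilobase is log2 CPM (read counts scaled to the size of each library) minus the log2 of the gene's counted exon length in kilobases, and a percentile is the share of the 13957 genes with a lower level per kilobase. Over all genes the median level per kilobase was 2.43, with quartiles of 0.94 and 3.88. The 42 repair genes had a median of 2.37 on the same scale, and 21 of the 42 lay above the median of all genes. With the counted length their levels thus centred where the table did, with 6 genes above the upper quartile and 5 below the lower one. Without scaling to length, 28 of the 42 lay above the median log2 CPM of all genes (median log2 CPM 5.22 against 4.58), and the repair genes were also longer, with a median counted length of 6996.5 bases against 4839 bases. They lay on 18 chromosomes. The cell line's own markers were checked on the same scale. Of 8 genes listed as high in these mesenchymal cells, 7 had values, the lowest being the receptor EGFR at the 88.0th percentile and the highest the receptor kinase AXL at 8.65 per kilobase, with vimentin (VIM) at 8.08. SPARC gave no value. Of 8 listed as low, ESR1 and PGR, the oestrogen and progesterone receptors, gave no value. FOXA1 stood at 0.19 (15.6th percentile) and CDH1 (E-cadherin) at 1.07 (26.9th percentile). EPCAM, at 2.40 (49.3rd percentile), lay almost at the median of all genes. The other 3 went against the list, with GATA3 at 2.72 (55.4th percentile), ERBB2 at 3.13 (62.6th percentile) and KRT19, an epithelial keratin, at 7.12 (97.6th percentile). The markers of other cell types, PTPRC, CD3E, CD68, PECAM1 and ALB, gave no value.

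End joining held the most abundant transcripts. XRCC6, which encodes the Ku70 subunit that threads onto broken ends, had the highest level of all 42 genes at 7.09 per kilobase (chr22:41621119-41664048 in the GRCh38 coordinates of the table, forward strand). XRCC5, which encodes its partner Ku80, followed at 6.57. PRKDC, the catalytic subunit of the DNA-dependent protein kinase that Ku recruits, was next at 5.39. These 3 genes made up 48.6% of the summed CPM of the 42, and 51.7% of the sum when each CPM was divided by length in kilobases. Ligation factors were lower: XRCC4, the scaffold of ligase IV, was at 2.77 per kilobase and LIG4, the ligase itself, at 1.25. NHEJ1, which encodes the XLF filament protein that aligns the ends, was not analysed here because no row carried its symbol. The median of the 5 end joining genes found was 5.39 per kilobase, which was higher than the medians of the other role groups by 3.66 for the damage kinases and checkpoint genes, 3.47 for homologous recombination, 2.60 for the Fanconi genes and 2.11 for resection and helicases. That lead came from the 3 DNA-PK genes, since XRCC4 and LIG4 fell within the range of the other groups.

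**Figure D1:**
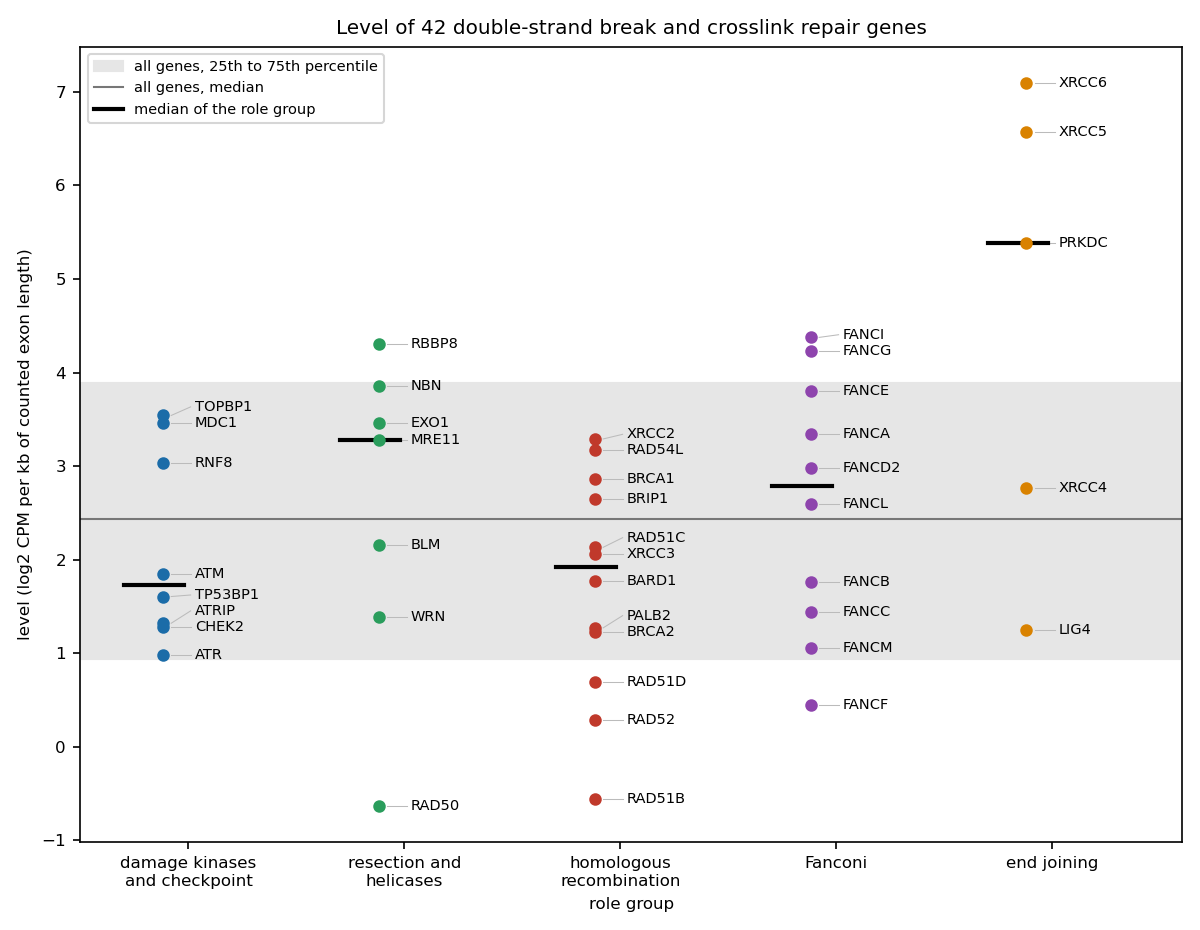
Level per kilobase (vertical axis, log2 CPM per kb of counted exon length) of each of the 42 genes, 1 dot per gene, by role group. Black bars are role group medians, and the grey band and line are the quartiles and median of all 13957 genes. XRCC6, XRCC5 and PRKDC lie above every other repair gene, and RAD50 and RAD51B lie lowest at -0.63 and -0.56.

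The damage kinases and checkpoint genes had a median of 1.73 per kilobase, and 3 of the 8 were above the median of all genes. TOPBP1, which activates ATR, was highest at 3.54, followed by MDC1, the scaffold that binds phosphorylated histone H2AX, at 3.46. RNF8, the ubiquitin ligase that MDC1 recruits, was at 3.04. The kinases themselves stood lower. ATM, the main responder to double-strand breaks, had a level of 1.85, CHEK2, the checkpoint kinase it phosphorylates, of 1.28, and ATR, the kinase that responds to single-stranded DNA, of 0.98, the lowest of the group. ATRIP, which ties ATR to coated single strands, was at 1.32. TP53BP1, which shields ends from resection, was at 1.60. The place of the kinases depended on the length used. Per kilobase of the canonical transcript (described below), ATM was at 2.74, ATR at 2.72 and CHEK2 at 2.57. They then stood above TP53BP1 (1.93) and ATRIP (1.57), and still below TOPBP1, MDC1 and RNF8. Without scaling to length, ATM had the highest log2 CPM of the group at 6.43. ATR was then at 5.74, beside RNF8 at 5.75, and CHEK2 was lowest at 3.45.

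Resection and helicase genes had a median of 3.27 per kilobase, and 4 of 7 were above the median of all genes. RBBP8, which encodes the CtIP protein that starts resection, was highest at 4.30. NBN and MRE11, a targeting subunit and the nuclease of the MRN complex, were at 3.85 and 3.27, and EXO1, the nuclease for long-range resection, was at 3.46. The RecQ helicases BLM and WRN were lower, at 2.15 and 1.38. RAD50, the ATPase subunit of the same MRN complex, stood apart at -0.63, the lowest level of all 42 genes and the 7.43rd percentile of the table. Most of its exon bases are shared with another gene, and per kilobase of unshared bases it was at 1.48 (described below).

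Homologous recombination genes had a median of 1.92 per kilobase, and 4 of the 12 were above the median of all genes. XRCC2, a subunit of the BCDX2 complex, was highest at 3.29. RAD54L, a motor protein that moves along DNA, was at 3.17, BRCA1 at 2.86 and BRIP1, a helicase that binds BRCA1, at 2.65. A middle set held RAD51C and XRCC3, which form the CX3 complex, at 2.13 and 2.06, and BARD1, the ubiquitin ligase partner of BRCA1, at 1.77. PALB2 and BRCA2, which act together downstream of BRCA1, were at 1.27 and 1.23. The lowest were RAD51D at 0.68, RAD52, a strand-annealing protein, at 0.28 and RAD51B at -0.56.

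Fanconi genes had a median of 2.79 per kilobase, and 6 of the 10 were above the median of all genes. FANCI, a target of the Fanconi ubiquitin ligase, was highest at 4.38, and its partner FANCD2 was at 2.98. The subunits of the core complex that builds this ligase spanned most of the range of the group. FANCG was at 4.23, FANCE at 3.80, FANCA at 3.34 and FANCL, the catalytic subunit, at 2.59. Below these came FANCB at 1.76, FANCC at 1.44, FANCM, the translocase that anchors the complex to DNA, at 1.05, and FANCF, an adaptor, at 0.44. FANCF is a gene of a single exon (chr11:22622533-22625823, reverse strand), so its counted length does not depend on the choice of transcript.

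**Figure D2:**
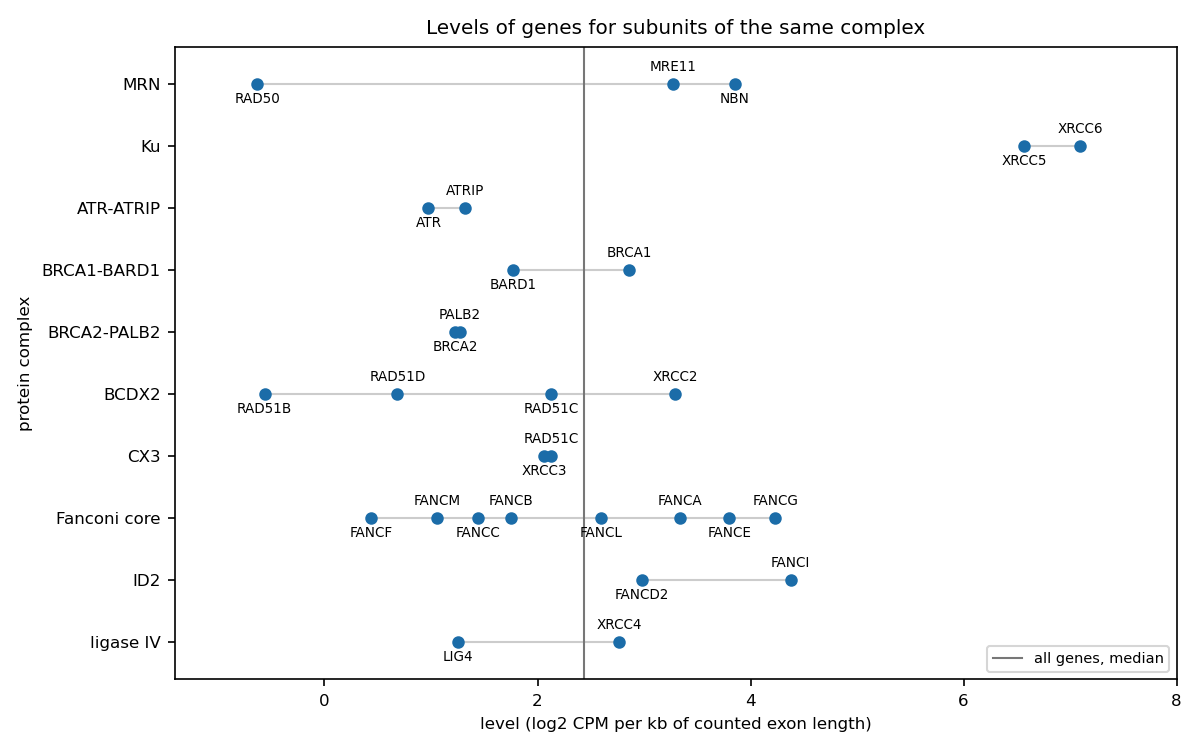
Level per kilobase (horizontal axis, log2 CPM per kb of counted exon length) of the genes for subunits of each complex (vertical axis), 1 dot per gene, with the median of all genes as a line. The MRN, BCDX2 and Fanconi core complexes spread widest, and BRCA2-PALB2 and CX3 least.

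Genes for partners in 1 complex differed to very unequal degrees. PALB2 and BRCA2 differed 1.03-fold per kilobase, RAD51C and XRCC3 (the CX3 complex) 1.05-fold, ATR and ATRIP 1.27-fold and the Ku genes 1.44-fold. Wider gaps separated BRCA1 from BARD1 (2.13-fold), FANCI from FANCD2 (2.63-fold) and XRCC4 from LIG4 (2.86-fold). The widest were in the Fanconi core complex (13.9-fold from FANCG to FANCF), in the BCDX2 complex (14.4-fold from XRCC2 to RAD51B) and in MRN (22.4-fold from NBN to RAD50). These ranges rested in part on the length used, which was the counted length, the canonical transcript (the single transcript that GENCODE marks for each gene), the longest transcript, the exon union of GENCODE release 44 or the exon bases not shared on the same strand. Over these 5 lengths the MRN range ran from 3.46-fold with unshared exon bases, where RAD50 was at 1.48 and MRE11 was highest at 3.27, to 23.4-fold with the canonical transcript. The Fanconi core range ran from 11.9-fold to 32.4-fold and that of BCDX2 from 5.46-fold to 14.4-fold. XRCC4 and LIG4 differed from 2.86-fold to 6.95-fold, FANCI and FANCD2 from 1.62-fold to 2.63-fold and BRCA1 and BARD1 from 1.40-fold to 2.13-fold. The Ku genes stayed between 1.20-fold and 1.46-fold. ATR and ATRIP changed order, to 2.72 for ATR and 1.57 for ATRIP with the canonical transcript, and so did XRCC3 and RAD51C, to 3.61 and 3.37. Over the 5 lengths ATR and ATRIP differed by at most 2.22-fold. XRCC3 and RAD51C differed by up to 2.58-fold, with the exon union (2.06 and 0.70), so their near equality held only for some lengths. BRCA2 and PALB2 also changed order, and differed by at most 1.35-fold.

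The counted length was equal to the union of all annotated exons in GENCODE release 44 for 20 of the 42 genes, so it could exceed that of any single transcript. For 6 of the 42 genes it was more than 2 times the canonical transcript, and 14 moved by more than 1.5 times when the canonical length replaced it. RAD51B moved most, from -0.56 to 1.70 per kilobase, followed by ATR from 0.98 to 2.72. XRCC3 moved from 2.06 to 3.61, FANCC from 1.44 to 2.92, CHEK2 from 1.28 to 2.57 and RAD51C from 2.13 to 3.37. RAD50 stayed lowest with either length, at -0.28 per kilobase of its canonical transcript. With the exon union of release 44 in place of the table's length, FANCL, whose union there is 37977 bases against 2412 bases in the table, moved from 2.59 to -1.38 and lay below RAD50.

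**Figure D3:**
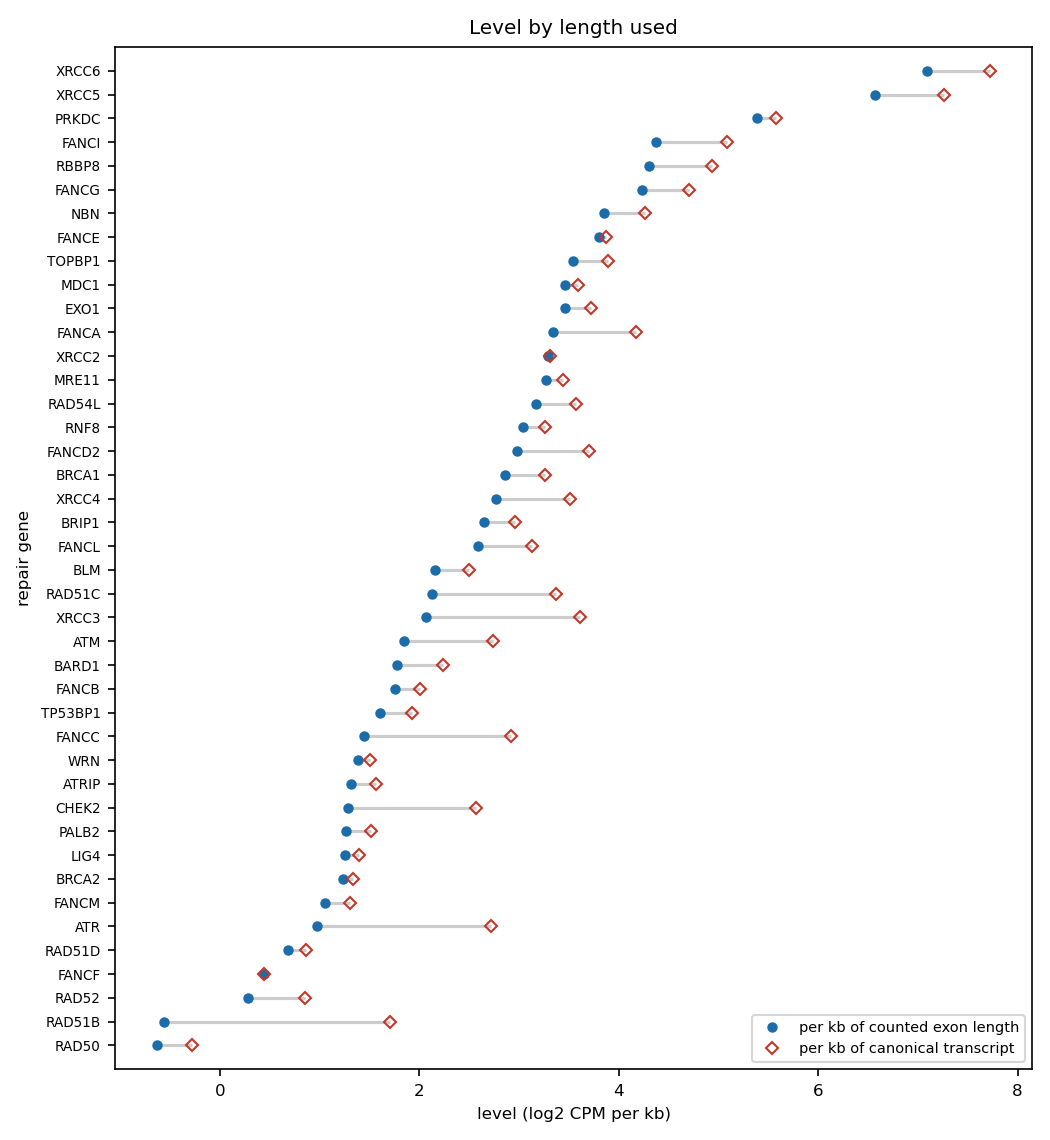
Level (horizontal axis, log2 CPM per kb) of each repair gene (vertical axis, ordered by level) with the counted exon length (filled circles) and with the canonical transcript (open diamonds). The order of the highest 3 genes and the place of RAD50 as lowest are the same with both lengths, whereas RAD51B moves from -0.56 to 1.70.

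Exons shared with other genes coincided with the low value of RAD50. RAD50 lies at chr5:132556019-132646349 on the forward strand, and in GENCODE 76.9% of its exon bases also belong to a protein coding gene of the same strand, ENSG00000283782, which gave no value here. Reads from those bases cannot be told apart between the 2 genes, and how reads that matched several genes were counted is not given in the sources used here. Per kilobase of the exon bases it does not share, RAD50 had a level of 1.48, which holds for RAD50 only if reads in the shared bases were not counted for it. Across the table, 299 of 13922 genes (2.15%) shared at least 50% of their exon bases with a gene of the same strand, and their median level per kilobase was 0.69. Whether the sharing sets the level of RAD50 was not tested. Among the other repair genes, ATRIP shared 26.7% of its exon bases on the same strand with the exonuclease gene TREX1, and 40 of the 42 shared under 10%. On the opposite strand, XRCC3 shared 76.7% with the kinesin light chain gene KLC1 (log2 CPM 5.55), TP53BP1 28.8% with TUBGCP4, RAD54L 19.9% with LRRC41 and FANCA 19.6% with ZNF276. The sources do not give the strand setting of the counting, so these levels are less certain than those of the other members.

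Many of the repair genes start head to head with another gene, that is, with an opposite-strand start upstream within 1000 bases. In GENCODE 20 of the 42 had such a neighbour, against 24.9% of all genes, and for 10 of them the neighbour also had a value, against 13.7% of the protein coding genes. The starts of the 10 pairs lay a median of 234.5 bases apart. The neighbour was the higher of the pair per kilobase in 5 of the 10, and the median difference (neighbour minus repair gene) was 0.05. Without scaling to length the neighbour had the higher log2 CPM in 3 of the 10, with a median difference of -1.29, and the ATM and CHEK2 pairs changed direction. Levels within a pair could nevertheless be far apart. XRCC6 was at 7.09 per kilobase and DESI1 at 3.89, whereas XRCC4 was at 2.77 and its neighbour TMEM167A, a Golgi protein gene, at 4.80. BRCA1 was at 2.86 and the long noncoding RNA NBR2 at 1.07. MRE11 was at 3.27 and ANKRD49 at 1.75, and PALB2 at 1.27 and the dynactin gene DCTN5 at 2.81. The closest pairs were PRKDC with the replication helicase gene MCM4 (5.39 and 5.25), ATM with the histone transcription factor gene NPAT (1.85 and 2.09), CHEK2 with HSCB (1.28 and 1.61) and FANCB with MOSPD2 (1.76 and 2.09). XRCC3 was at 2.06 and ZFYVE21 at 1.37.

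**Figure D4:**
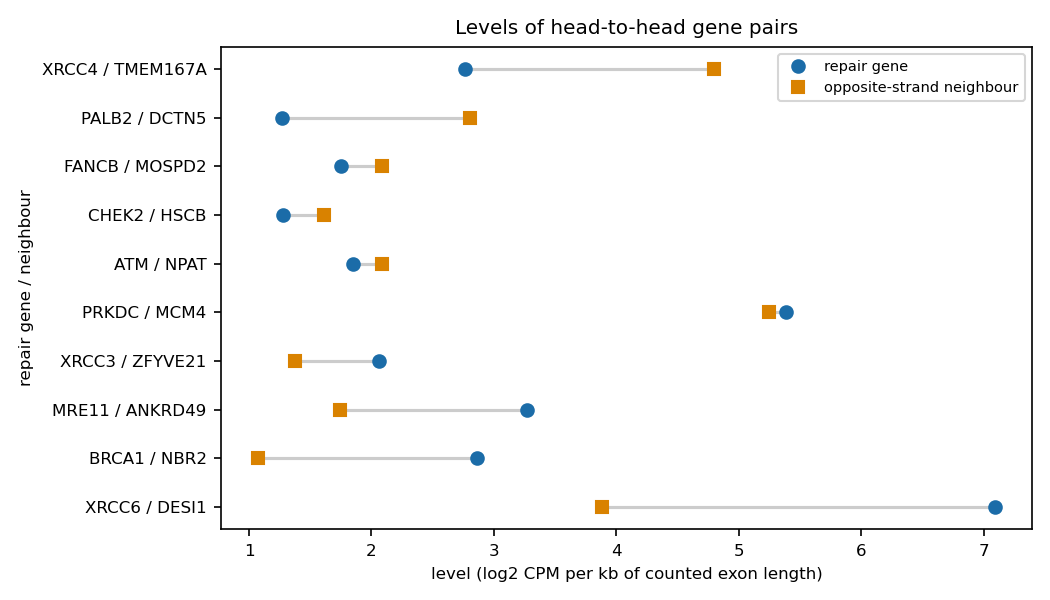
Level (horizontal axis, log2 CPM per kb of counted exon length) of 10 repair genes (circles) and of the gene that starts head to head with each (squares), 1 row per pair. The neighbour is higher in 5 of the 10, and the neighbour minus repair gene difference ranges from -3.21 for DESI1 to 2.03 for TMEM167A.

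The sequence between the starts is shown for the 5 measured pairs with starts at most 250 bases apart (XRCC6 and DESI1, at 251, lay just outside), because it lies upstream of both canonical transcripts. Other annotated transcripts can start inside or beyond it, and the annotated spans of BRCA1 and CHEK2 run past it. Each was read from the hg38 genome between the canonical starts and is written 5′ to 3′ along the strand of the repair gene. Each sequence therefore begins beside the start of the neighbour and ends beside the start of the repair gene. The labels name the repair gene first and do not give the direction. Capitals mark a CCAAT box, a promoter element bound by the factor NF-Y, as CCAAT or its reverse complement ATTGG. The stretches are chr17:43125365-43125550 (186 bases, reverse strand) for BRCA1, chr22:28741821-28742038 (218 bases, reverse strand) for CHEK2, chr11:94493845-94493983 (139 bases, reverse strand) for MRE11, chr16:23641311-23641465 (155 bases, reverse strand) for PALB2 and chr5:83077395-83077546 (152 bases, forward strand) for XRCC4.
BRCA1 to NBR2: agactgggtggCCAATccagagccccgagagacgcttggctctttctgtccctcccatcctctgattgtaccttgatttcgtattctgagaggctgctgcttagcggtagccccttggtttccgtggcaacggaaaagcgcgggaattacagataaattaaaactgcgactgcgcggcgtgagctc
CHEK2 to HSCB: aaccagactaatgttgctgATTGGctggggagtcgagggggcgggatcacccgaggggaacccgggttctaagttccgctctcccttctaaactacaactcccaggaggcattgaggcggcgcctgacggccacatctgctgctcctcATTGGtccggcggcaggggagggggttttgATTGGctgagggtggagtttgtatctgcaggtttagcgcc
MRE11 to ANKRD49: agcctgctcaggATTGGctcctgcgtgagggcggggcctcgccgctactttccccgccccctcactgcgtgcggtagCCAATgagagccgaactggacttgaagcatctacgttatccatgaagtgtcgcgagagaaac
PALB2 to DCTN5: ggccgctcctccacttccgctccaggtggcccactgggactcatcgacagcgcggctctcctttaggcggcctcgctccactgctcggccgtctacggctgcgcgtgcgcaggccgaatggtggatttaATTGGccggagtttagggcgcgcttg
XRCC4 to TMEM167A: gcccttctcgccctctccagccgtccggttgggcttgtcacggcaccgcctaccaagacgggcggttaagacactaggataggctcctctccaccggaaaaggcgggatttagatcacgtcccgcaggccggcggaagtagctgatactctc

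CHEK2 held 3 CCAAT boxes between the starts, MRE11 held 2, BRCA1 and PALB2 held 1 each and XRCC4 held 0. Between the starts, none of the 5 held the TATA box, nor the E2F, NRF1 or ETS letters given below. The GC content of these stretches was 54.3% for BRCA1 and 66.5% for PALB2, the lowest and highest of the 5. The promoter windows described below cover different bases. In those windows ETS letters were found for MRE11, PALB2 and XRCC4, but not for BRCA1 or CHEK2. A CCAAT box was found there for all 5 genes, XRCC4 included.

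Promoter letters were also counted in 300-base windows, 250 bases before to 50 after the start, which RefSeq sequences on hg38 gave for 37 of the 42 genes and for 9755 genes of the table. In all, 8 motifs were searched on both strands, SP1 and NRF1 letters can overlap those of E2F, and each count is set beside the share of all 9755. E2F sites (TTTCCCGC, TTTCGCGC, TTTGCCGC or TTTGGCGC), bound by factors that drive genes of DNA replication, were in 7 of 37 (18.9%, against 5.68%): EXO1, FANCA, FANCC, FANCD2, TOPBP1, XRCC2 and XRCC6. The CCAAT box was in 19 (51.4%, against 37.1%) and the ETS site CCGGAAG in 12 (32.4%, against 20.7%). SP1 sites (GGGCGG) were in 27 (73.0%, against 74.4%), NRF1 sites (GCATGCGC) in 2 (5.41%, against 5.85%) and the cell cycle homology element TTTGAA in 4 (10.8%, against 8.92%). The TATA box (TATAAA) and the YY1 site (AAGATGGCG) were in 0 of 37, against 4.82% and 4.40%. E2F, ETS and CCAAT letters were thus more frequent than in the table, but letters in a window are not evidence of binding, and these shares were not tested. The 7 genes with E2F letters had a median level per kilobase of 3.34, and those with a promoter and none of these letters had 1.81. For ETS letters the medians ran the other way, at 1.44 with and 2.65 without, and for the CCAAT box they were 2.15 and 1.95. GC content had a median of 64.3% against 66.3% over all, and RAD51B had the lowest at 32.3%.

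Of 55 other genes of the same pathways on a fixed list, 53 were found and 27 lay above the median of all genes, with a median level per kilobase of 2.64. The highest was H2AX, the histone variant phosphorylated around breaks, at 6.89, and the lowest was APLF, an end joining accessory factor, at -1.11. CHEK1, the checkpoint kinase downstream of ATR, was at 4.15.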

How the data were processed

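Total RNA libraries from 2 cordycepin and 2 vehicle control samples, stranded and depleted of ribosomal RNA, were sequenced with paired 75-base reads. Per the methods, the authors mapped reads to GRCh38.p13 and counted with Rsubread, whereas the submitters' processing notes name TopHat, HTSeq, DESeq and Cufflinks with hg38. The difference could not be resolved, and the filter on low counts, normalisation and strand setting are not given in the sources used here. The deposited table gives 1 log2 CPM per gene, the authors' mean over all 4 libraries, and a gene length in bases. It also holds the authors' own comparison of cordycepin with vehicle (log2 fold change, F, p and adjusted p), which was not used. Depth per library is unknown.

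Symbols were matched exactly. Level per kilobase was log2 CPM minus log2 of length in kilobases. GENCODE release 44 supplied canonical transcripts, shared exon bases and opposite-strand starts. Of the gene IDs, 13922 (99.7%) were found there, and the length equalled its exon union for 73.5% of genes and 20 of the repair genes. Python 3.11.15, numpy 2.4.6 and pandas 2.3.3 were used. The steps for exon overlap, level per kilobase, percentile and reading of the annotation were tested on simulated data. Those for neighbours, sequences and motifs were not. All repair genes found were named with measured opposite-strand neighbours, and of the other pathway genes the highest and the lowest. CHEK1 was named after its value was seen, and the value of 1 gene is not reported here. The repair genes, role groups, complexes, marker and pathway lists were chosen with earlier results of these data known, and the promoter motifs with the levels known.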

Additional observations from a re-analysis of the deposited data

How the results depend on the processing

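No paired analysis was possible because the table holds no values per sample, and for the same reason no library could be left out. Levels moved with the length used, and "moved" below means by over 1.5 times. The median of the damage kinases and checkpoint genes was 0.19 below that of homologous recombination (-0.19), but above it by 0.93 without length correction, 0.37 with the longest transcript, 0.13 with the canonical transcript, 0.087 with the GENCODE exon union and 0.31 with unshared exon bases, so their order is not settled. The last 2 lengths, and leaving out RAD50 and XRCC3 for shared exons, were chosen after seeing the data. Without length correction the medians were 5.75 (damage kinases), 5.51 (resection), 4.82 (homologous recombination), 5.18 (Fanconi) and 8.81 (end joining), and end joining led by 3.07, 3.30 and 3.63 over damage kinases, resection and Fanconi genes. The damage kinases had a median of 2.72 with the longest and 2.73 with the canonical transcript, and end joining led them by 2.87 and 2.85. Canonical lengths also gave 2.60 for homologous recombination and 3.42 for Fanconi. Both the exon union and unshared bases gave 2.20 for resection, 1.70 for Fanconi and 4.47 for end joining, whose lead over damage kinases was 3.01 and 2.78. With PRKDC among the kinases, the end joining median was 4.67 and its leads were 2.82 over damage kinases, 1.39 over resection, 2.75 over homologous recombination and 1.88 over Fanconi genes. End joining had the highest median in each of these settings. Every setting used only the listed end joining genes, and a wider list, with the lower genes given above, was not tried. Leaving out RAD50 and XRCC3, or joining resection to homologous recombination, moved no median or difference. The count of repair genes above the median ranged from 15, among genes above the lowest 25% of log2 CPM, to 28 without length correction. That filter left out FANCF, RAD51B, RAD52 and RAD50, so the 15 is not out of 42. The count was 17 with the exon union and with unshared exon bases, and 22 with the canonical transcript.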
